A study of Mus musculus with 6 samples.

Results

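The genes described here encode the proteins of the mitochondrial ribosome. They were taken by name, as every row whose symbol starts with Mrpl (large subunit) or Mrps (small subunit) followed by a number. The names matched 80 rows, of which 4 pseudogene rows (names ending in -ps and a number) were dropped and none was at 0 in every library. This left 76 genes of the 38924 rows in the table, 47 of the large and 29 of the small subunit. Of these, 75 genes (46 large, 29 small) had at least 1 RPKM (reads per kilobase of exon, scaled to the size of the library) in at least 2 libraries and were tested.

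Mitochondria carry their own ribosome, which translates the few membrane proteins of the respiratory chain that the mitochondrial genome still encodes. Its 2 ribosomal RNAs come from that genome, while all of its proteins are encoded in the nucleus, made in the cytosol and imported. Part of these proteins have counterparts in bacterial ribosomes, and the rest were added in the line leading to mitochondria. The small subunit binds and decodes the messenger, and the large subunit joins the amino acids and passes the chain to the inner membrane. In blood formation, dividing progenitors and myeloid leukemia cells have been described as leaning on this ribosome for oxidative phosphorylation.

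RNA was sequenced from bone marrow of C57BL/6 mice that had received a transplant of transduced marrow cells. In every group the cells carried GFP, and the sort kept c-kit+ Lin- cells with GFP, a gate for stem and progenitor cells. The mock group carried GFP alone and was taken 4 weeks after transplantation, the Preleukemia group carried Evi1, a transcription factor, with GFP and was taken at 4 weeks, and the Leukemia group carried Evi1 with GFP and was taken at 6 months. Each group had 2 libraries, and no GFP group at 6 months was analysed here, so time after transplantation and leukemia cannot be told apart in the Leukemia comparisons. Whether the 2 libraries of each group stem from different mice is not in the labels, so p-values measure the spread of these libraries alone, and that spread may be technical. Mecom, the gene that encodes Evi1, measured 0.774 and 0.805 RPKM in mock, 78.0 and 80.1 in Preleukemia, with 61.7 and 71.5 in Leukemia, which matches the labels.

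The step size of the values implied totals of 16906110 to 21624291 reads per library. A tested gene of the mitochondrial ribosome had 52 to 3116 implied reads in a library, with a median of 505. All 6 stem and progenitor markers (Kit, Cd34, Ptprc, Gata2, Myb and Flt3) were at or above 1 RPKM in every library, with summed levels of 397 to 571 RPKM, though single markers differed: Flt3 was 14.7 and 18.6 RPKM in mock, 3.66 and 3.13 in Preleukemia, with 1.63 and 4.19 in Leukemia. Markers of other lineages moved with the groups. The summed level of 9 erythroid markers was 357 and 149 RPKM in mock, 193 and 117 in Preleukemia, with 4.76 and 14.5 in Leukemia. That of 10 neutrophil markers was 2576 and 1866 in mock, 6684 and 11315 in Preleukemia, with 1531 and 1766 in Leukemia. Most of that sum in mock and Leukemia was Mpo and Elane, which early myeloid progenitors also make. S100a8, of more mature cells, was 6.25 and 5.68 RPKM in mock, 2179 and 4117 in Preleukemia, with 227 and 373 in Leukemia. The part of these cell types in the results below was not tested. Fewer cells of a type and less RNA per cell cannot be told apart in such bulk samples.

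The genes of the mitochondrial ribosome were expressed at moderate and rather even levels. Over the 6 libraries the median of their mean levels was 10.8 RPKM, beside 8.22 RPKM over all 10958 genes tested, with 10.99 for the large and 10.55 for the small subunit. Mean levels ran from 1.60 to 32.0 RPKM, and 60 of the 75 genes lay between 5 and 25 RPKM. The highest were Mrpl42, a mitochondria-specific protein of the large subunit (32.0), Mrpl24 (30.5) and Mrpl34 (28.7), both conserved from bacteria, and Mrpl12, the stalk protein that receives translation factors (24.5). The lowest tested were Mrpl17, a conserved large subunit protein (1.60), Mrps34, a mitochondria-specific small subunit protein (1.93), Mrpl47, at the exit of the tunnel (2.97) and Mrps10, in the head of the small subunit (3.09). Exons of Mrps34 are overlapped over 77.8% of their length by Mapk8ip3 and Nme3, and the library kit does not mark the strand, so its level is uncertain.

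Mrpl53, a protein at the base of the stalk, was the only gene not tested. It measured 0.315 and 0.135 RPKM in mock, 0.322 and 0.377 in Preleukemia, with 0.389 and 0.415 in Leukemia, equal to 2 to 6 reads per library. Other genes overlap 88.0% of its exon length, so this low level rests on few reads that may not have been assigned to it. In all, exons of 32 of the 76 genes overlap another gene, 23 of them a protein-coding one.

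**Figure D1:**
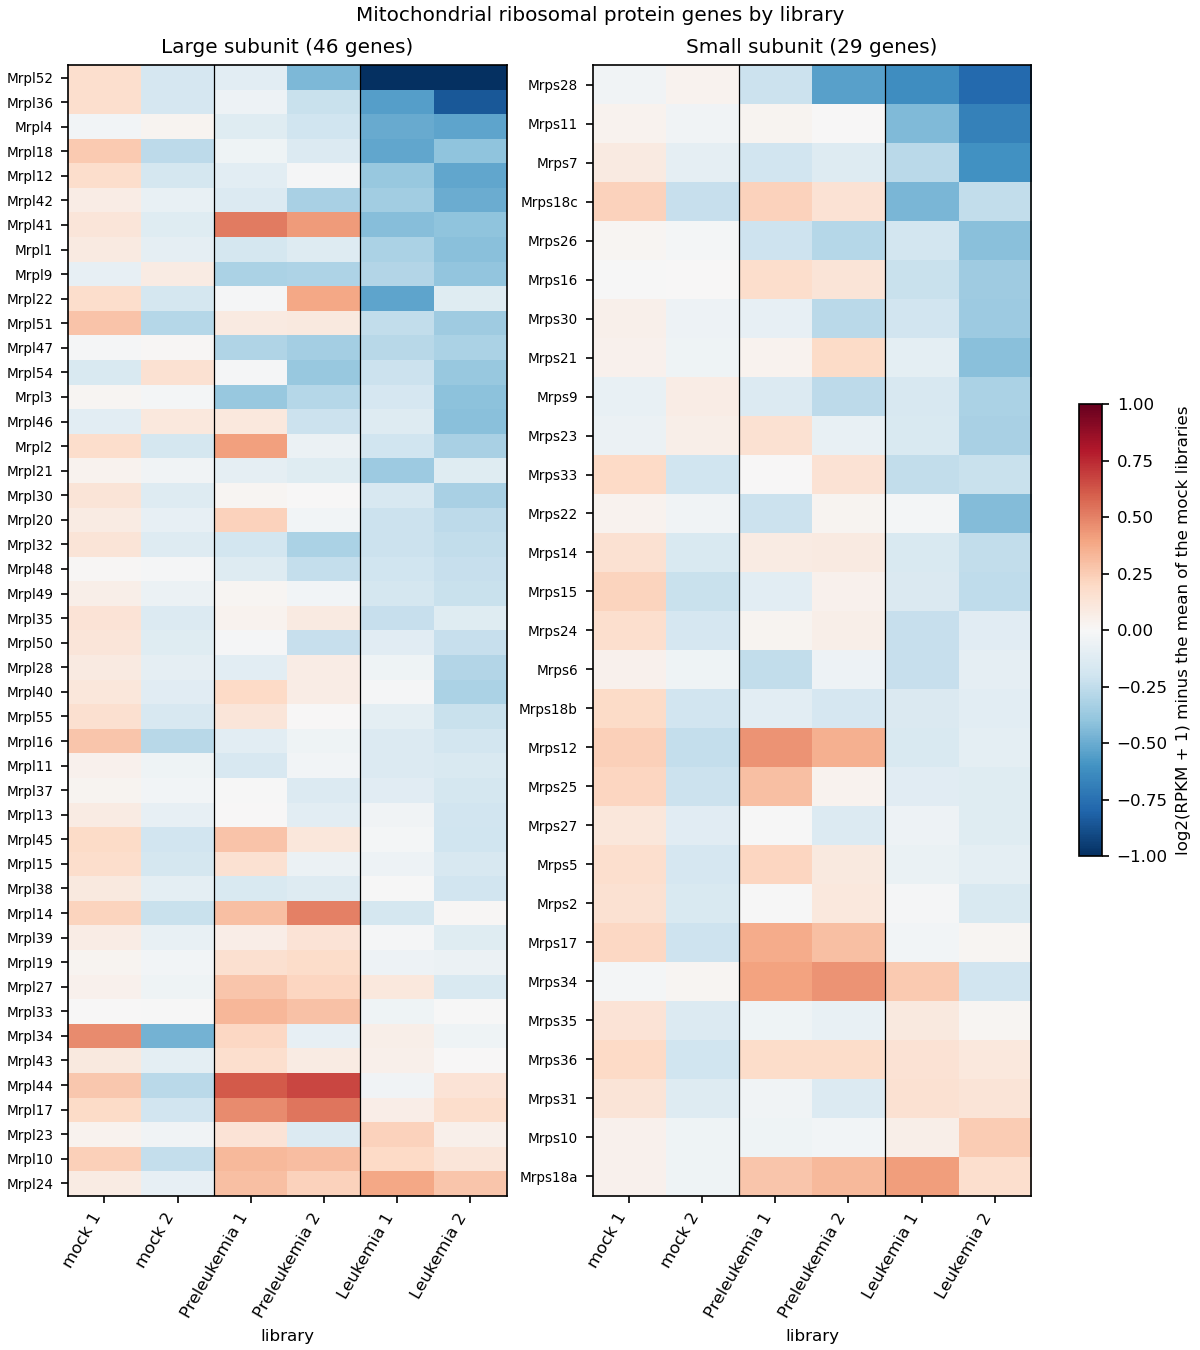
Each cell is log2(RPKM + 1) of 1 gene in 1 library minus the mean of the 2 mock libraries, with genes of the large subunit (46) and small subunit (29) ordered by the difference of Leukemia from mock; the color scale ends at -1 and 1, and Mrpl52 in Leukemia lies beyond it. Blue cells prevail in the 2 Leukemia columns of both panels, and mock 1 is mostly redder than mock 2.

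The large and small subunits moved together. The summed level of the 46 large subunit genes was 659 and 548 RPKM in mock, 625 and 587 in Preleukemia, with 520 and 492 in Leukemia. That of the 29 small subunit genes was 340 and 295 RPKM in mock, 323 and 315 in Preleukemia, with 282 and 262 in Leukemia. In both subunits the Leukemia libraries lay below all 4 others, while the Preleukemia libraries lay between the 2 mock libraries. The sum over all 10958 genes tested was also lowest in Leukemia (223114 and 220954 RPKM). It was 236310 and 230881 in mock and 250467 and 248238 in Preleukemia. Leukemia means were 506 ± 19.7 RPKM for the large and 272 ± 14.1 RPKM for the small subunit (SD, n = 2), beside 603 ± 78.8 and 318 ± 31.6 in mock and 606 ± 27.0 and 319 ± 5.62 in Preleukemia.

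The balance of the subunits differed little between groups. The ratio of the large to the small sum was 1.94 and 1.86 in mock, 1.93 and 1.86 in Preleukemia, with 1.84 and 1.87 in Leukemia. The group means (1.90 ± 0.0593, 1.90 ± 0.0513 and 1.86 ± 0.0237, SD, n = 2) lay within the spread of the mock libraries, and the ranges of all 3 groups overlap. Structures of the ribosome place Mrps30 and Mrps18a in the large subunit and leave Mrps36 out. Counted that way, the ratio was 2.22 and 2.14 in mock, 2.22 and 2.13 in Preleukemia, with 2.15 and 2.18 in Leukemia, again with overlapping ranges. With sums over genes and 2 libraries a group, no test of the ratio was made.

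**Figure D2:**
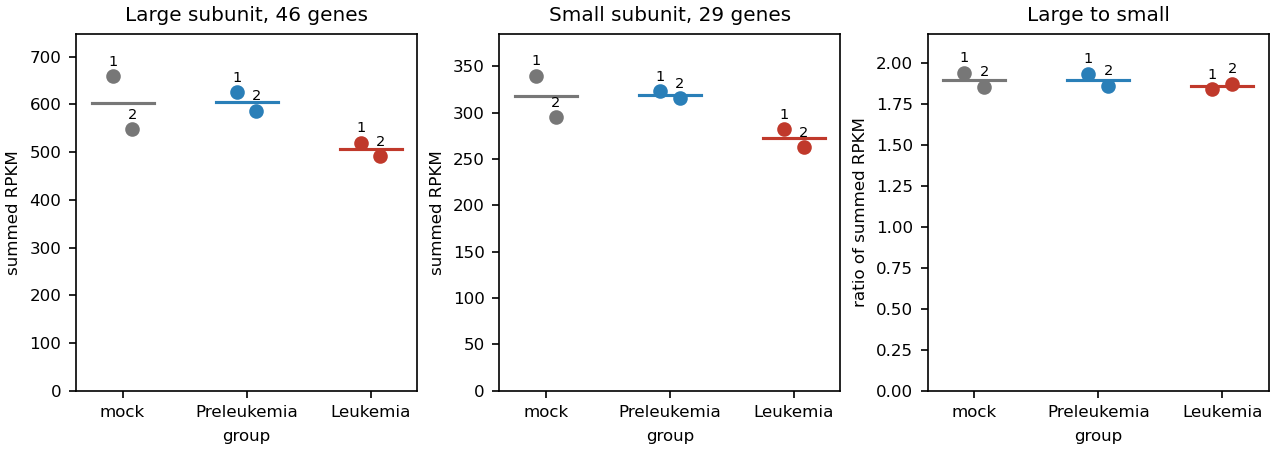
Points are libraries (numbered by replicate) and lines are group means of the summed RPKM of the large subunit genes, of the small subunit genes, and of the ratio of the 2 sums, each axis starting at 0. Both sums are lowest in the Leukemia libraries (492 to 520 and 262 to 282 RPKM), and the ratio stays between 1.84 and 1.94 in all 6 libraries.

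The 2 mock libraries differed from each other across these genes. Mock 1 was above mock 2 for 65 of the 75 genes, by a median of 0.20 on the log2(RPKM + 1) scale, beside 0.05 between the Preleukemia libraries and 0.10 between the Leukemia libraries. That gap is larger than the median difference between Leukemia and mock given below (-0.17). The erythroid sum was also higher in mock 1 than in mock 2, as given above. So were the sums of stem and progenitor markers (571 and 435 RPKM), neutrophil markers (2576 and 1866) and 18 cell cycle genes (1026 and 788). Those of monocyte and macrophage (69.1 and 108), B-lymphoid (41.3 and 43.7) and stroma and endothelium markers (26.7 and 28.7) were lower in mock 1. The part of any of these in the gap was not tested.

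The first comparison asks what Evi1 changed at 4 weeks, before leukemia. Of the 75 genes, 1 rose and none fell in Preleukemia against mock, by limma with Benjamini-Hochberg adjusted p under 0.05 over all genes tested. Over all genes 19.5% passed (13.5% higher and 6.02% lower), so the share of mitochondrial ribosomal genes, 1.33%, was below the background. At an unadjusted p under 0.05, 10 of the 75 genes passed (6 higher, 4 lower), beside 3911 of all 10958 genes (35.7%). The median log2 fold change was 0.01 for the mitochondrial ribosomal genes (0.00 for the large and 0.04 for the small subunit) and 0.05 for all genes. The 2 Preleukemia libraries were above both mock libraries for 14 of the 75 genes and below both for 16. Over all 10958 genes these counts were 4081 (37.2%) and 2791 (25.5%). Of the 75 genes, 73 (97.3%) lay within 0.5 of 0 on the log2 scale, beside 76.8% of all genes.

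The gene that rose was Mrpl41, a mitochondria-specific protein of the large subunit that has also been described as a factor in cell death. It lies at chr2:24974117-24975098 (GRCm38, minus strand, 2 exon blocks) and overlaps no other gene. Mrpl41 measured 12.3 and 10.3 RPKM in mock, 16.5 and 15.4 in Preleukemia, with 8.10 and 8.26 in Leukemia. The 3 groups did not overlap, with Preleukemia highest and Leukemia lowest. In Preleukemia it was 1.42 times the mock mean (log2 fold change 0.47, SE 0.12, adjusted p = 0.0368, limma).

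That call held in 8 of 15 alternatives (adjusted p from 0.00942 to 0.195). It was lost without mock 2 (adjusted p = 0.0604), without either Preleukemia library (0.195 and 0.160) and without either Leukemia library (0.0816 and 0.0813). Without mock 1 the count rose from 1 to 12 genes (11 higher, 1 lower), and the median of the 75 genes went from 0.01 to 0.15. That median was below 0 with median-of-ratios scaling (-0.05) and quantile normalization (-0.07), so it has no settled direction.

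Mrpl44, a protein with an RNase III-like fold near the exit of the tunnel, had the largest log2 fold change of the 75 genes here and was chosen for mention after its values were seen. It measured 15.8 and 10.6 RPKM in mock, 20.3 and 21.1 in Preleukemia, with 12.6 and 14.3 in Leukemia. Both Preleukemia libraries were above all others, but the difference from mock missed the threshold (log2 fold change 0.64, adjusted p = 0.0512, limma).

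The second comparison sets Leukemia at 6 months against mock at 4 weeks. Here 7 of the 75 genes fell and none rose, though 1, Mrpl24, passed as higher with either other scaling: Mrpl52, Mrpl4, Mrpl36, Mrpl42 and Mrpl41 of the large subunit and Mrps28 and Mrps11 of the small subunit. Over all genes 25.6% passed, 13.5% lower and 12.1% higher, so the 9.33% of mitochondrial ribosomal genes that passed is below the background share, and all 7 are on the lower side. At an unadjusted p under 0.05, 16 of the 75 genes passed (15 lower, 1 higher), beside 4390 of all 10958 genes (40.1%).

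Small differences in the same direction were common. The median log2 fold change was -0.17 in both subunits and -0.04 over all genes, and Leukemia had the lower mean for 62 of the 75 genes (82.7%), beside 53.9% of all genes. The 2 Leukemia libraries were below both mock libraries for 37 of the 75 genes and above both for 4. Over all 10958 genes these counts were 3889 (35.5%) and 3282 (30.0%). Most differences were small, with 93.3% of these genes within 0.5 of 0 on the log2 scale. The median below 0 held with median-of-ratios scaling (-0.15) and quantile normalization (-0.15), but without mock 1 it was -0.05 and without mock 2 it was -0.28.

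Mrpl52, a mitochondria-specific protein near the central protuberance of the large subunit, showed the largest decrease. It lies at chr14:54426909-54429756 (GRCm38, plus strand, 3 exon blocks) and overlaps no other gene. It measured 29.2 and 22.8 RPKM in mock, 24.0 and 18.6 in Preleukemia, with 6.12 and 10.1 in Leukemia. Both Leukemia libraries were far below the other 4, while mock and Preleukemia overlapped. The Leukemia mean was 3.20-fold lower than in mock (log2 fold change -1.59, SE 0.24, adjusted p = 0.00512, limma). It is the only one of the 7 genes that passed in all 15 alternatives run (adjusted p from 0.00522 to 0.0276).

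Among proteins with bacterial counterparts, Mrpl4, which lines the exit tunnel, measured 20.1 and 20.9 RPKM in mock, 18.8 and 17.8 in Preleukemia, with 14.2 and 13.9 in Leukemia. The groups did not overlap and the libraries within each lay close together. The Leukemia mean was 1.46-fold lower than in mock (log2 fold change -0.51, SE 0.09, adjusted p = 0.0105, limma). Mrpl36, a small zinc-binding protein of the large subunit, measured 30.2 and 23.8 RPKM in mock, 25.9 and 22.9 in Preleukemia, with 18.0 and 14.5 in Leukemia. Mock and Preleukemia overlapped and Leukemia was below both. Its Leukemia mean was 1.66-fold lower than in mock (log2 fold change -0.70, SE 0.16, adjusted p = 0.0208, limma).

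Mrps28, the counterpart of bacterial S1, measured 16.5 and 17.4 RPKM in mock, 14.5 and 11.3 in Preleukemia, with 10.7 and 9.49 in Leukemia. The 3 groups did not overlap, with mock highest and Leukemia lowest. The Leukemia mean was 1.68-fold lower than in mock (log2 fold change -0.70, SE 0.14, adjusted p = 0.0136, limma). Mrps11, a protein of the platform where the messenger leaves the small subunit, measured 6.16 and 5.79 RPKM in mock, 6.09 and 5.98 in Preleukemia, with 4.14 and 3.37 in Leukemia. Mock and Preleukemia overlapped, and Leukemia, below both, was 1.59-fold lower than mock (log2 fold change -0.56, SE 0.13, adjusted p = 0.0230, limma).

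The other 2 genes that fell were mitochondria-specific proteins of the large subunit. Mrpl42 measured 39.2 and 35.1 RPKM in mock, 33.6 and 29.4 in Preleukemia, with 28.9 and 26.1 in Leukemia. Its groups followed each other downward without overlap, and Leukemia was 1.35-fold lower than mock (log2 fold change -0.42, SE 0.12, adjusted p = 0.0399, limma). Mrpl41, with the values given above, was 1.38-fold lower in Leukemia than in mock (log2 fold change -0.41, adjusted p = 0.0452, limma). Both calls held in 7 of 15 alternatives (adjusted p up to 0.226 for Mrpl42 and 0.189 for Mrpl41), while those of Mrpl4, Mrpl36 and Mrps28 held in 13 and that of Mrps11 in 9.

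The length of this list rests on single libraries. Without mock 2 it had 17 genes, all lower, and without mock 1 it had 10 genes, 6 lower and 4 higher. Without Leukemia 1 it held Mrpl36 and Mrpl52 (2 genes) and without Leukemia 2 only Mrpl52 (1 gene). Without either Preleukemia library, which changes only the estimate of the spread, it had 4 genes.

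Mrpl24, which stands at the opening of the exit tunnel, went the other way in level and is given because it is among the 4 highest genes. It measured 27.8 and 24.7 RPKM in mock, 32.6 and 31.0 in Preleukemia, with 34.5 and 32.0 in Leukemia. Both groups with Evi1 were above mock, but the difference of Leukemia from mock missed the threshold (log2 fold change 0.33, adjusted p = 0.0572, limma). It passed as higher with median-of-ratios scaling, quantile normalization, the replicate block and without mock 1, and Rrnad1 overlaps 26.3% of its exon length. Mrpl34 measured 38.7 and 19.6 RPKM in the 2 mock libraries alone, which enclosed the other 4 libraries (26.0 to 32.1).

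**Figure D3:**
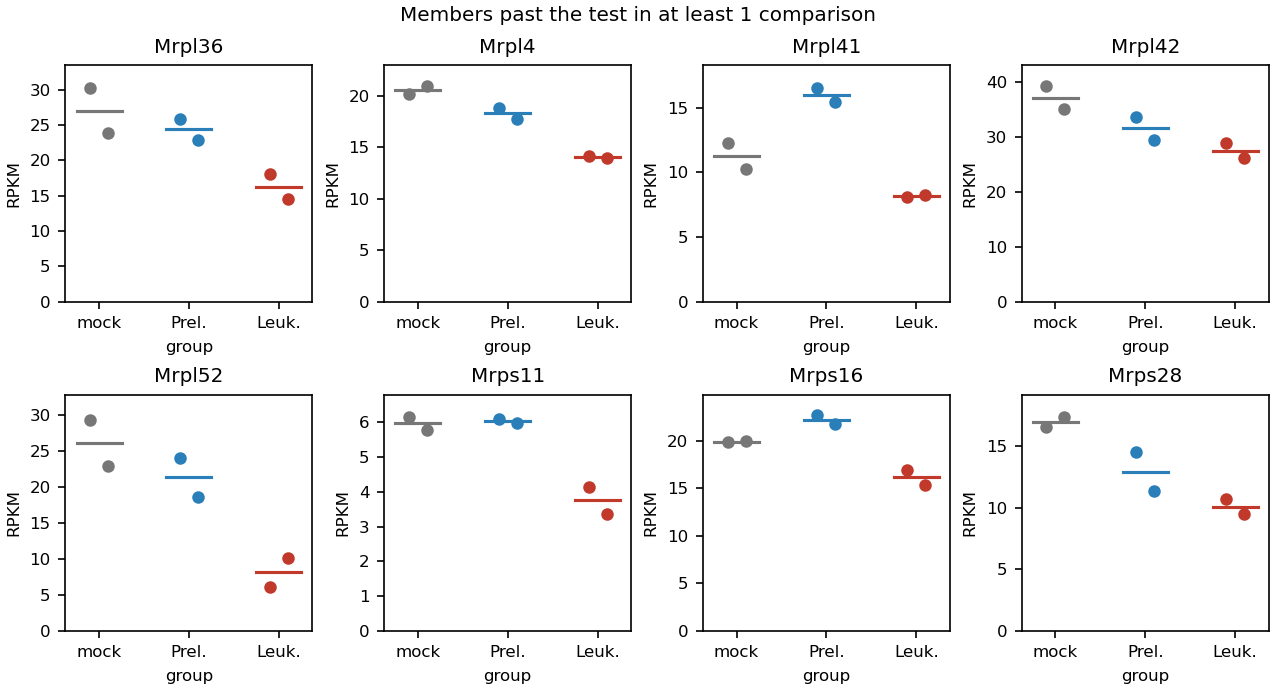
RPKM of the 8 genes that passed the test in at least 1 comparison, with points for libraries, lines for group means and axes starting at 0 (Prel., Preleukemia; Leuk., Leukemia). Leukemia is the lowest group for all 8 genes, and Mrpl41 and Mrps16 are the genes with Preleukemia above mock without overlap (for Mrpl41, 16.5 and 15.4 against 12.3 and 10.3 RPKM).

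The third comparison sets Leukemia against Preleukemia, both with Evi1. It shares the Leukemia libraries with the second comparison and the Preleukemia libraries with the first, so the 3 are not independent. Of the 75 genes, 5 fell and none rose: Mrpl41, Mrpl52 and Mrpl4 of the large subunit and Mrps16 and Mrps11 of the small subunit. Over all genes 18.3% passed, 13.0% lower and 5.27% higher, beside 6.67% of the mitochondrial ribosomal genes. At an unadjusted p under 0.05, 15 of the 75 genes passed, all lower, beside 3703 of all 10958 genes (33.8%).

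Leukemia had the lower mean for 65 of the 75 genes (86.7%), and over all genes that share was itself 61.6%. The median log2 fold change was -0.22 for the mitochondrial ribosomal genes (-0.21 large, -0.22 small) and -0.09 for all genes. The 2 Leukemia libraries were below both Preleukemia libraries for 47 of the 75 genes and above both for 3. Over all 10958 genes these counts were 5044 (46.0%) and 2708 (24.7%). Scaling moved both medians. With median-of-ratios scaling the medians were -0.13 and -0.01, with 51 genes lower, and with quantile normalization they were -0.11 and 0.03, with 48 genes lower (64.0%, beside 46.2% of all genes). The distance between the 2 medians was -0.12, -0.12 and -0.14 in the 3 scalings.

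Mrpl41 had the smallest p in this comparison. Its Leukemia mean was 1.95-fold lower than its Preleukemia mean (log2 fold change -0.89, SE 0.12, adjusted p = 0.00517, limma), and the call held in 14 of 15 alternatives, missing without Leukemia 1 (adjusted p = 0.0515). Mrpl52 was 2.62-fold lower (log2 fold change -1.31, SE 0.24, adjusted p = 0.0136), a call lost without Preleukemia 1 (0.0879), Preleukemia 2 (0.0607) or Leukemia 1 (0.0676) and with no filter on low values (0.0564).

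Mrps16, a conserved protein of the small subunit in which inherited defects of the mitochondrial ribosome have been found, passed here and not against mock (adjusted p = 0.0725, limma). It measured 19.9 RPKM in both mock libraries, 22.7 and 21.8 in Preleukemia, with 16.9 and 15.4 in Leukemia. The groups did not overlap, with Preleukemia highest, and Leukemia was 1.38-fold lower than Preleukemia (log2 fold change -0.44, SE 0.10, adjusted p = 0.0256, limma). Mrps11 was 1.61-fold lower (log2 fold change -0.57, adjusted p = 0.0275) and Mrpl4 1.30-fold lower (log2 fold change -0.36, adjusted p = 0.0444). Calls of these 3 genes held in 10, 9 and 7 of 15 alternatives. That of Mrpl4 was lost with either other scaling (adjusted p = 0.101 and 0.117, limma). With quantile normalization no small subunit gene passed, so the calls of Mrps16 and Mrps11 were lost there as well.

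Without Leukemia 1 none of the 75 genes passed in this comparison, without Leukemia 2 there were 2, and without either Preleukemia library there was 1, Mrpl41. Without either mock library there were 16, all lower. Mrpl41, Mrpl52, Mrpl4 and Mrps11 (4 genes) were lower in Leukemia against both mock and Preleukemia. Across all 3 groups, Leukemia had the lowest mean for 58 of the 75 genes (77.3%), 36 large and 22 small, beside 41.9% of all genes.

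**Figure D4:**
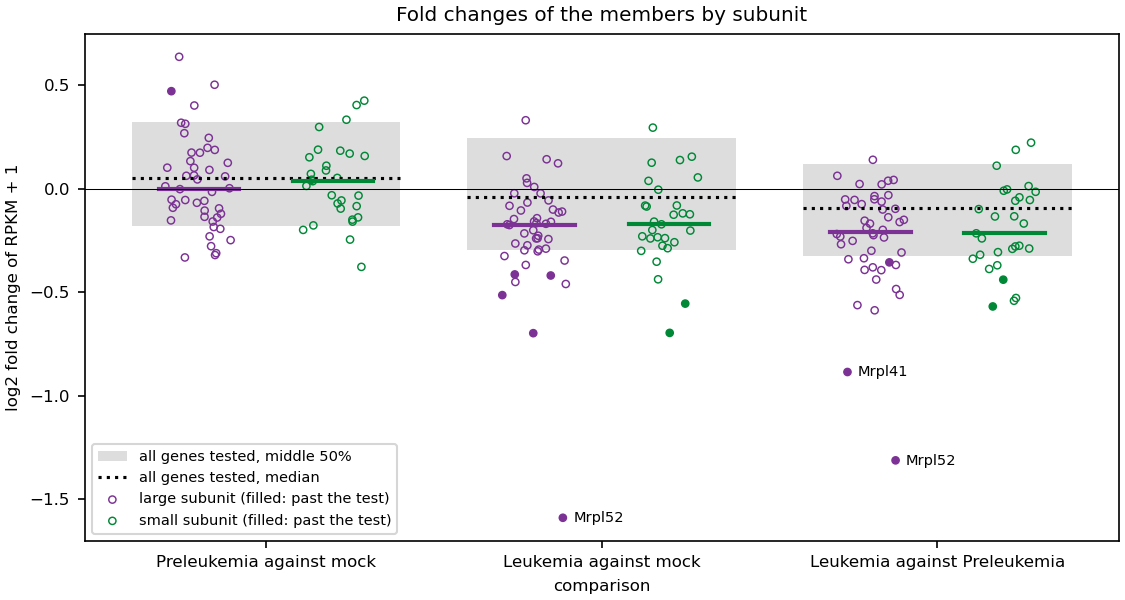
Each point is the log2 fold change of 1 gene on the log2(RPKM + 1) scale, filled where the adjusted p was under 0.05, with colored lines for the median of each subunit, a dotted line for the median of all 10958 genes and a gray band for their middle 50%. The 2 subunits have nearly the same median in each comparison, and Mrpl52 lies far below the rest in both Leukemia comparisons (-1.59 and -1.31).

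Mrps11 shares its 5′ end with another gene of the same ribosome. It lies at chr7:78783119-78792989 on the plus strand, and Mrpl46, a protein of the central protuberance, lies at chr7:78775236-78783531 on the minus strand, so that their exons overlap at this end (8.0% of the exon length of Mrps11 and 12.2% of that of Mrpl46). Mrpl46 is named for this overlap. It measured 7.41 and 8.71 RPKM in mock, 8.70 and 6.80 in Preleukemia, with 7.25 and 5.78 in Leukemia. The Leukemia libraries were below both mock libraries and overlapped Preleukemia, and the difference from mock did not pass (log2 fold change -0.27, adjusted p = 0.261, limma), against -0.56 for its neighbor. Reads from the shared stretch cannot be told apart by strand.

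Promoters of the genes were compared with 4 short motifs of factors known to act on genes for mitochondria, because the group is often described as sharing such sites. Windows ran from 250 bases before to 50 after each RefSeq start (GRCm38.p6, 300 bases, both strands), and 67 of the 76 genes had one. The YY1 motif AAGATGGCG was found for 8 of the 67 genes (11.9%), beside 1.64% of all 27025 genes with a window. The ETS motif of GABPA, CCGGAAGT, was found for 12 (17.9% beside 4.31%), and the NRF1 motif GCGCATGC for 8 (11.9% beside 3.05%), 7 of the large and 1 of the small subunit. The E-box CACGTG, which MYC family proteins bind, was found for 5 (7.46% beside 8.09%). Of the 8 genes that passed a test, 6 had a window, and these held the YY1 motif in 3, the ETS motif in 1, the E-box in 1 and the NRF1 motif in 0. A match describes the letters only.

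The promoters of Mrpl52 and Mrpl41, the genes with the largest log2 fold changes past the test, are shown because they differ in this respect. Each stretch has 120 bases before and 25 after the annotated start, 5′ to 3′ on the strand of the gene, from RefSeq on GRCm38.p6. Mrpl52 is at chr14:54426789-54426933, plus strand, and Mrpl41 at chr2:24975074-24975218, minus strand. Capitals mark the ETS motif, read on the opposite strand, just after the start of Mrpl52. None of the 4 motifs is in the window of Mrpl41.
Mrpl52: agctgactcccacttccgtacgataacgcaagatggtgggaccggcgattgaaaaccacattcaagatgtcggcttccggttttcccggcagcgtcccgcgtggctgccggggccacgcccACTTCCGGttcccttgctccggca
Mrpl41: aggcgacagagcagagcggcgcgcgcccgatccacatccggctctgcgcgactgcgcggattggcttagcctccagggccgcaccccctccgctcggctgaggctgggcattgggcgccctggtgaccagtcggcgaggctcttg

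The ribosome was also split by origin of its proteins and by site. Over all genes, 13.5% fell in Leukemia against mock and 13.0% in Leukemia against Preleukemia. Of 29 large subunit genes with bacterial counterparts, 2 (6.90%) and 1 (3.45%) fell, in that order. Of 16 tested mitochondria-specific large subunit genes, 3 (18.8%) and 2 (12.5%) fell. Among these, 1 rose in Preleukemia against mock (6.25%, beside 13.5% of all genes). Among 15 conserved small subunit genes, 1 (6.67%) and 2 (13.3%) fell, and among 9 mitochondria-specific small subunit genes none passed in any comparison. These small subunit lists hold 24 of the 29 genes and leave out Mrps28, which fell in Leukemia against mock. As the counterpart of bacterial S1, Mrps28 belongs with the conserved genes, so their share that fell in that comparison is understated. Medians in Leukemia against mock were -0.18, -0.19, -0.20 and -0.12 in that order, beside -0.04 for all genes, and those against Preleukemia were -0.22, -0.19, -0.28 and -0.13, beside -0.09.

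By site, none of the 3 tested stalk genes and none of 7 genes around the exit tunnel (a list without Mrpl4) passed in any comparison. Among 7 genes of the central protuberance, Mrpl52 was the one that passed (14.3% in each Leukemia comparison, beside 13.5% and 13.0% of all genes lower). Known proteins of this ribosome that carry other names were taken as a check on the naming rule. Of 7 such genes (Dap3, Ptcd3, Chchd1, Aurkaip1, Gadd45gip1, Mrp63 and Ict1), 1 passed, Mrp63, in Leukemia against Preleukemia (14.3%, beside 13.0% of all genes lower). Mrp63 measured 7.02 and 6.74 RPKM in mock, 8.71 and 8.78 in Preleukemia, with 6.46 and 6.36 in Leukemia (log2 fold change -0.40, SE 0.10, adjusted p = 0.0441, limma), a call lost with median-of-ratios scaling and with quantile normalization. Preleukemia was above both other groups, a pattern it shares with Mrpl41. Such an order is common: Preleukemia had the highest mean for 35 of the 75 genes (46.7%), beside 38.7% of all genes. The medians of the 7 genes were -0.01, -0.23 and -0.22 in the 3 comparisons, close to those of the 75.

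The factors that work with the ribosome were mixed. Of 16 mitochondrial translation factors 1 passed, in Leukemia against mock (6.25%, beside 25.6% of all genes). It was Guf1, a GTPase that acts on the ribosome, which rose (7.19 and 5.91 RPKM against 10.2 and 10.1, log2 fold change 0.57, adjusted p = 0.0231, limma). Of 23 genes for assembly of the ribosome and modification of its RNA, 4 fell and 1 rose in Leukemia against mock. That is 21.7%, beside 25.6% of all genes. In Preleukemia against mock 1 fell (4.35%, beside 6.02% of all genes). Rbfa, which helps mature the small subunit, was at 30.5 and 30.8 RPKM in mock, 23.3 and 21.7 in Preleukemia, with 22.2 and 22.3 in Leukemia. It was lower than mock in both groups with Evi1 (log2 fold changes -0.43 and -0.45, adjusted p = 0.0222 and 0.0152, limma), with no overlap of either with mock. The others were Mpv17l2 (-0.56, adjusted p = 0.0263) and Wbscr16 (-0.42, 0.0480), both linked to ribosome assembly, C1qbp (-0.56, 0.0486) and, upward, Mettl17 (0.57, 0.0472).

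Several genes for mitochondrial import, chaperones and mass fell. Of 14 such genes, 7 fell in Leukemia against mock, beside 13.5% of all genes, and their median was -0.43 on the log2 scale, beside -0.04. In each of the other comparisons 2 fell (14.3%, beside 6.02% of all genes in Preleukemia against mock and 13.0% in Leukemia against Preleukemia), and in the last it was 0 with median-of-ratios scaling and with quantile normalization. Timm23, the channel of the inner membrane through which these ribosomal proteins enter, measured 27.5 RPKM in both mock libraries, 18.1 and 18.6 in Preleukemia, with 15.0 and 15.7 in Leukemia. It was lower than mock in Preleukemia (log2 fold change -0.56, adjusted p = 0.00945) and in Leukemia (-0.80, adjusted p = 0.00203, limma), and the 3 groups did not overlap. Hspa9, the motor of that import, was also lower in both (-0.47 and -0.56, adjusted p = 0.0244 and 0.0107), and Cycs, cytochrome c, was lower in Leukemia than in mock (-0.73, adjusted p = 0.0194).

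The 13 mitochondrially encoded messengers, which this ribosome translates, had medians of -0.46 in Preleukemia and -0.44 in Leukemia against mock and -0.01 between the 2 groups with Evi1, a value whose sign turned with scaling (0.09 and 0.24). Medians over all genes were 0.05, -0.04 and -0.09 in the same order. Passing were mt-Nd1 and mt-Nd2 in Preleukemia (log2 fold changes -0.65 and -0.66, adjusted p = 0.0449 and 0.0465, limma) and mt-Nd3 and mt-Nd2 in Leukemia against mock (-0.87 and -0.61, adjusted p = 0.0222 and 0.0476). These are 2 of 13 genes (15.4%) in each comparison, beside 6.02% and 13.5% of all genes that fell. The level of mt-Nd2, a subunit of complex I, was 508 and 545 RPKM in mock, 400 and 278 in Preleukemia, with 323 and 366 in Leukemia. Both mock libraries were above the other 4. The 2 calls in Preleukemia became 3 with median-of-ratios scaling and 5 with quantile normalization, and the 2 in Leukemia became 1 and 2. Both mitochondrial ribosomal RNA genes are listed at 0.

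Of 77 tested genes for proteins of the cytosolic ribosome, 1 fell in Preleukemia against mock (1.30%, beside 6.02% of all genes). In Leukemia against mock 10 fell (13.0%, beside 13.5% of all genes), and in Leukemia against Preleukemia 1 fell (1.30%, beside 13.0%). With quantile normalization 12 were lower in the first of these comparisons, and 11 were higher and 1 lower in the last. Their medians were -0.12, -0.13 and -0.04, and the last turned to 0.06 with median-of-ratios scaling and 0.14 with quantile normalization. Over the same 3 comparisons the mitochondrial ribosomal genes had 0.01, -0.17 and -0.22. The difference between the 2 ribosomes was not tested.

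**Figure D5:**
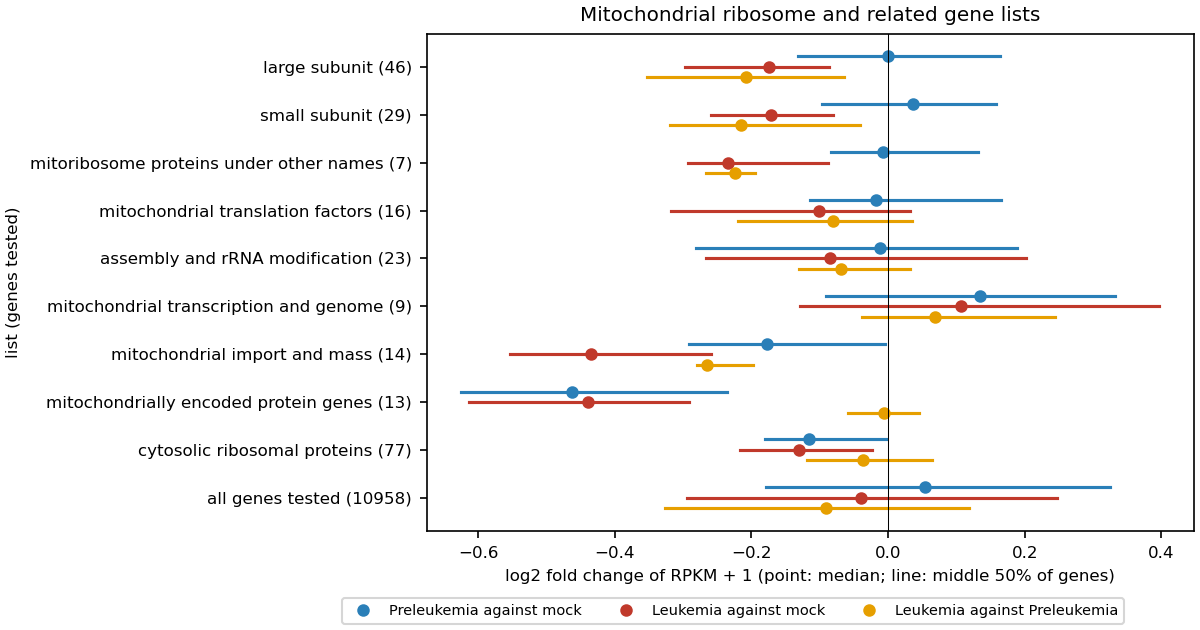
Points are the median log2 fold change of each list and lines the middle 50% of its genes on the log2(RPKM + 1) scale, with the number of genes tested in brackets. Both subunits lie below 0 in the 2 Leukemia comparisons (-0.17 to -0.22) and near 0 in Preleukemia against mock (0.00 and 0.04), whereas the mitochondrially encoded genes lie near -0.46 and -0.44 against mock and near 0 between the groups with Evi1.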

How the data were processed

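RNA-seq values of 6 libraries (2 each of mock, Preleukemia and Leukemia) were used. The authors deposited 1 table of RPKM per gene and library. The unit was inferred from the values: times the exon length in GENCODE M21, 64.6% to 66.6% of values under 20 reads lay within 0.02 of a whole read (4% by chance). CASAVA 1.8.2 and build GRCm38 appear, without roles, per the submitters' processing notes. Aligner, counting tool and annotation: not given in the sources used here, so reads in overlapping genes are uncertain.

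Tests used limma (version 3.58.1, under R 4.3.3) on log2(RPKM + 1), two-sided, with the group means of all 6 libraries, a spread that follows the mean level (3 residual and 3.70 prior degrees of freedom) and Benjamini-Hochberg adjustment over the 10958 genes of at least 1 RPKM in at least 2 libraries. The fit was tested on simulated data, which held no shift between libraries of a group like that seen between the mock libraries. Fold ratios are of mean RPKM, and log2 fold changes understate changes of low genes. Named were the up to 8 genes with the largest rise and fall among those past the test, the 4 highest and 4 lowest genes, those not tested, and up to 3 genes past the test in each list and comparison, with exceptions stated in the text. Gene locations are from GENCODE M21 and promoters from RefSeq. The genes and lists were chosen with earlier results of these data known. Alternatives covered pseudocounts, filters, scaling, the spread, the replicate block and each library left out.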

Additional observations from a re-analysis of the deposited data

How the results depend on the processing

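None of the 8 mitochondrial ribosomal genes past the test changed sign in any alternative run. Their groups did not overlap where they passed, so leaving out a library could not turn the sign. The medians and the large-minus-small differences moved by less than the replicate spread. Leaving out 1 of 2 libraries moves a group mean by less than their SD, so this was largely fixed in advance. As each mock library was left out, the median was -0.10 or 0.15 in Preleukemia against mock. In Leukemia against mock it was -0.28 or -0.05. For Preleukemia against mock, the count of 1 gene became 0 with no filter on low values, 2 with a filter of 5 RPKM, 2 with quantile normalization and 0 when only the 4 libraries at issue were fitted, and ranged from 0 to 12 as each library was left out. Without mock 2 the 1 gene that passed was lower, not higher. For Leukemia against mock, the count of 7 became 3 with no filter and 4 in the fit of 4 libraries, and ranged from 1 to 17 with a library left out. For Leukemia against Preleukemia, the count of 5 became 3 with no filter, 2 with quantile normalization and 16 in the fit of 4 libraries, and ranged from 0 to 16. Where 1 library was left for a group, it was assumed to vary like the others.

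Replicate numbers are shared by the groups, but the correlations of same-numbered deviations were 0.12, 0.01 and 0.18, so they were not taken as pairs. With the number as a block the counts were 1, 9 and 5. Counting only genes whose exons overlap no other gene, an alternative chosen after seeing the data, gave 1, 5 and 4. Among all genes past the test, the share that was higher moved from 69.2% to 58.9% and 52.9% in Preleukemia against mock, and from 28.8% to 42.6% and 50.8% in Leukemia against Preleukemia, with median-of-ratios scaling and quantile normalization.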

Other observations

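Among 11 tested regulators of nuclear genes for mitochondria, Mycn, a MYC family factor, measured 1.74 and 0.872 RPKM in mock, 6.28 and 4.67 in Preleukemia, with 0 and 0.0309 in Leukemia. It rose in Preleukemia against mock (log2 fold change 1.5, adjusted p = 0.00692, limma) and fell in Leukemia against Preleukemia (-2.66, adjusted p = 0.00164), the last a fitted value that depends on the pseudocount. Ppargc1b, a coactivator of mitochondrial biogenesis, measured 3.06 and 3.15 RPKM in mock, 1.58 and 1.33 in Preleukemia, with 0.775 and 0.612 in Leukemia, lower at each step with no overlap (adjusted p = 0.0162 and 0.0455, limma). Pprc1, of the same family, fell in Preleukemia against mock (-0.50, adjusted p = 0.0236). Nrf1, Gabpa and Yy1, whose motifs were searched, did not pass in any comparison, with Yy1 at 48.2 and 58.6 RPKM in mock and 41.7 and 39.9 in Leukemia (log2 fold change -0.37, adjusted p = 0.0566).

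Of 9 tested genes that transcribe, copy and package the mitochondrial genome, 2 rose and 1 fell in Leukemia against mock (33.3%, beside 25.6% of all genes). The largest rise was that of Ssbp1 (10.6 and 8.32 RPKM in mock against 16.9 and 16.5, log2 fold change 0.77, adjusted p = 0.0160, limma). Polg, the polymerase, was the 1 that fell (9.36 and 8.05 against 5.24 and 6.15, -0.54, adjusted p = 0.0343, limma). Of 18 cell cycle genes, 4 (22.2%, beside 13.5% of all genes) fell in Leukemia against mock, the helicase subunits Mcm2, Mcm3, Mcm4 and Mcm5. Mcm3 and Mcm4 also fell in Preleukemia against mock (2 of 18, 11.1%, beside 6.02% of all genes). In that comparison 11 of the 18 genes had a higher mean than in mock. Their median log2 fold change, over all 18, was 0.24, beside 0.05 over all genes. In Leukemia against mock the median of the 18 was -0.17, beside -0.04, with 14 lower (77.8%, beside 53.9% of all genes). Against Preleukemia it was -0.31, beside -0.09, with 16 lower (88.9%, beside 61.6%), though none of the 18 passed. These medians lie at or below those of the mitochondrial ribosomal genes (-0.17 and -0.22), and a link between the 2 lists was not tested.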
